A study of Homo sapiens with 9 samples.

Results

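The aminoacyl-tRNA synthetases of the cytosol and of the mitochondrion were examined in MDA-MB-231, an established line of human triple-negative breast cancer, with and without knockdown of ASAH1, which encodes acid ceramidase, a lysosomal enzyme that hydrolyses ceramide. Members were chosen by gene symbol, with earlier results of these data known. They were 20 genes of the cytosolic enzymes and 16 genes of the mitochondrial enzymes, whose symbols end in 2. So 36 of the 26485 genes in the tables were members. All 36 passed the filter on low values in both comparisons. The cells stably carried a non-specific shRNA (NS shRNA) or 1 of 2 independent shRNAs against ASAH1, called ASAH1 shRNA #1 and ASAH1 shRNA #2, and were grown in DMEM with fetal bovine serum, penicillin and streptomycin. RNA was sequenced in 9 libraries, 3 for each shRNA, which the submitters call biological replicates. The sources used here do not say how many separate infections or clones stand behind each shRNA, so a property of a culture and an effect of its hairpin cannot be told apart. In bulk RNA, a larger share of cells carrying a transcript and more of it per cell cannot be told apart either.

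Aminoacyl-tRNA synthetases attach each amino acid to its own tRNA, the step that fixes the genetic code before the ribosome is reached. The cytosol and the mitochondrion use largely separate sets, both encoded in the nucleus. GARS and KARS are exceptions, since each gene yields a cytosolic and a mitochondrial form of the glycine and the lysine enzyme. EPRS joins the glutamate and the proline enzyme in a single chain, FARSA and FARSB are the subunits of the cytosolic phenylalanine enzyme, and the mitochondrion makes its glutamine tRNA by converting a glutamate one instead of using QARS. The enzymes fall into class I and class II by the fold of the catalytic domain, and part of the cytosolic set is held in a multi-tRNA synthetase complex by the scaffold proteins AIMP1, AIMP2 and EEF1E1. Uncharged tRNA is sensed by the kinase GCN2 (EIF2AK4) with GCN1, which raises translation of the transcription factor ATF4. ATF4 binds a composite C/EBP-ATF element near many amino acid genes, and several cytosolic synthetase genes are known among its targets.

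That element was searched as TGATGNAA on both strands of the RefSeq promoter windows (GRCh38.p14, 250 bases before to 50 after a start). Windows were given for 16 of the 20 cytosolic and 14 of the 16 mitochondrial members, and the genes without one were DARS, LARS, VARS, YARS, AARS2 and VARS2. The letters occurred in 7 of the 16 cytosolic members with a window (43.8%) and in 1 of the 14 mitochondrial members (7.14%). Over all 27305 genes of the promoter table the share was 4.46%. The matching stretches follow because they are what the cytosolic genes with a match share in sequence. They are written 5′ to 3′ along the gene's strand and end no later than base 30 after the start. Capitals mark the match, which reads TTNCATCA where it lies on the opposite strand.
AARS (chr16:70289660-70289719, minus strand): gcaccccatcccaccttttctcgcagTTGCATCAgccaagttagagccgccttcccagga
CARS (chr11:3057394-3057451, minus strand): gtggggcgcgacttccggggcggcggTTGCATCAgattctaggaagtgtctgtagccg
GARS (chr7:30594819-30594878, plus strand): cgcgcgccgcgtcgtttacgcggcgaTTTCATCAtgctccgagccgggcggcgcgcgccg
IARS (chr9:92293677-92293736, minus strand): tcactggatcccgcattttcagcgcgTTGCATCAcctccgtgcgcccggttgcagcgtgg
MARS (chr12:57488038-57488097, plus strand): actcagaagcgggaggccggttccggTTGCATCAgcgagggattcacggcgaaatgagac
NARS (chr18:57621807-57621848, minus strand): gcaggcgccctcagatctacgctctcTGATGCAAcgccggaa
TARS (chr5:33440941-33440994, plus strand): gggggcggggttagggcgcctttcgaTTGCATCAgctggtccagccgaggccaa
YARS2 (chr12:32756061-32756120, minus strand): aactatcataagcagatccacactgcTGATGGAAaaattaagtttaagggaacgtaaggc

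In IARS, MARS, CARS, TARS and NARS the match lay close to the start: it began 13 bases before it in IARS, 4 before it in MARS, 2 before it in CARS, and at base 3 after it in TARS and base 15 after it in NARS. In GARS it began 33 bases upstream. CARS, GARS and TARS each had 2 windows, and the match and its distance belong to only 1 of them. AARS and the mitochondrial YARS2 held it much farther away, beginning 187 and 197 bases upstream. For the contrast between a cytosolic gene that rose and one that fell, the 250 bases before the start of AARS and of QARS are given in full. The first holds the match in capitals and the second holds none, which says only that these letters were not in this window.
AARS (chr16:70289507-70289756, minus strand): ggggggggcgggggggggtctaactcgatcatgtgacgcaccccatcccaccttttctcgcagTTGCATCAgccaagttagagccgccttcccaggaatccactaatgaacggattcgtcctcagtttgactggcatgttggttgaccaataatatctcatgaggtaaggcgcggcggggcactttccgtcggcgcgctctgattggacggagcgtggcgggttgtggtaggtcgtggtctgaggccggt
QARS (chr3:49104758-49105007, minus strand): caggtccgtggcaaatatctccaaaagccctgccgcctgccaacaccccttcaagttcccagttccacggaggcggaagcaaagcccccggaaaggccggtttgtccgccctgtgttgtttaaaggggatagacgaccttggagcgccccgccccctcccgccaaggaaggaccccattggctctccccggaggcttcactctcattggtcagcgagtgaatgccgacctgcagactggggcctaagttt

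Reads on genes came to between 23806003 and 49659106 per library, and each normalized count is a read count divided by a size factor of its own table. The targeted gene ASAH1 had a log2 fold change of -1.76 (adjusted p = 9.49e-09, standard error 0.0496) with shRNA #1 and of -2.63 (adjusted p = 5.42e-10, standard error 0.0566) with shRNA #2. Among markers of the line, VIM held 41873 to 72608 reads and CD44 20719 to 34076 reads per library, while ESR1 and PGR held at most 2 reads. VIM itself changed, with a log2 fold change of -0.27 with shRNA #1 and -0.67 with shRNA #2. Of the markers of blood and endothelial cells reported here, PTPRC, CD3E and CDH5 held at most 8 reads, and PECAM1 held 39 to 102 reads and had log2 fold changes of -0.59 with shRNA #1 and -0.91 with shRNA #2. The part of these markers in the results that follow was not tested.

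To see how much of each enzyme's RNA the cells held without knockdown, levels in the NS shRNA libraries were divided by the length of the MANE transcript (normalized counts per kb, on the scale of the table with shRNA #1). The median was 2081 over the 20 cytosolic genes and 301 over the 16 mitochondrial genes, a ratio of 6.90. TARS, the cytosolic threonine enzyme, had the highest level with 8201 ± 117 (SD, n = 3). SARS and GARS, for serine and glycine, followed with 4947 ± 304 and 4212 ± 15.9. At the low end of the cytosolic set FARSB stood alone with 235 ± 15.1, below its partner subunit FARSA with 2321 ± 139.9. The MANE transcript of FARSB is the longest among the members, at 6761 bases. The mitochondrial genes were not uniformly low. IARS2, for isoleucine, reached 2854 ± 74.1, a level above the cytosolic median, and CARS2, for cysteine, reached 1310.5 ± 81.2. The other 14 lay between 105 in PARS2 and 491 in VARS2.

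**Figure D1:**
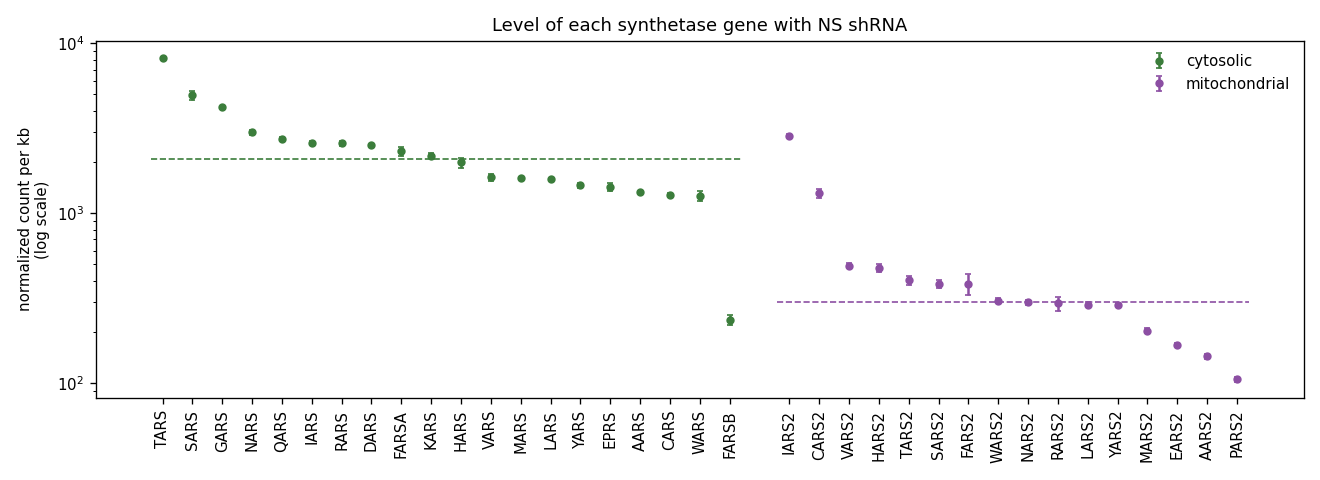
Normalized count per kb of MANE transcript (log scale) of each member in the NS shRNA libraries of the table with shRNA #1, as mean and SD over 3 libraries, with dashed lines at the median of each compartment (2081 cytosolic, 301 mitochondrial). IARS2 and CARS2 stand above the other mitochondrial genes and FARSB below the other cytosolic ones.

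Upon ASAH1 knockdown the cytosolic set rose with few exceptions, while the mitochondrial set was mixed. With shRNA #1, 16 of the 20 cytosolic genes rose, 2 fell (HARS and QARS) and 2 did not pass the test (DARS and RARS). Their median log2 fold change was 0.64, with a range from -0.79 to 1.75, against 0.0013 over all genes. At the same threshold (limma with Benjamini-Hochberg adjustment, adjusted p below 0.05) 32.8% of the 14341 genes tested were called higher and 33.3% lower (66.1% in either direction). Of the 16 mitochondrial genes, 5 rose, 3 fell and 8 did not pass, with a median of 0.10 and a range from -0.47 to 0.76.

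With shRNA #2, 18 of the 20 cytosolic genes rose and 2 fell, again HARS and QARS. The median was 0.76, from -0.91 to 1.55, against 0.01 over all genes, where 33.5% of the 14250 genes tested were called higher and 33.4% lower (66.9% in either direction). Of the mitochondrial genes, 8 rose, 3 fell and 5 did not pass, with a median of 0.15 and a range from -1.05 to 0.69. The share of mitochondrial genes that rose thus stood near the background with shRNA #1 and above it with shRNA #2, and the share of cytosolic genes that rose stood far above it with each. Both comparisons used the same NS shRNA libraries, so they are given side by side and not as separate support.

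**Figure D2:**
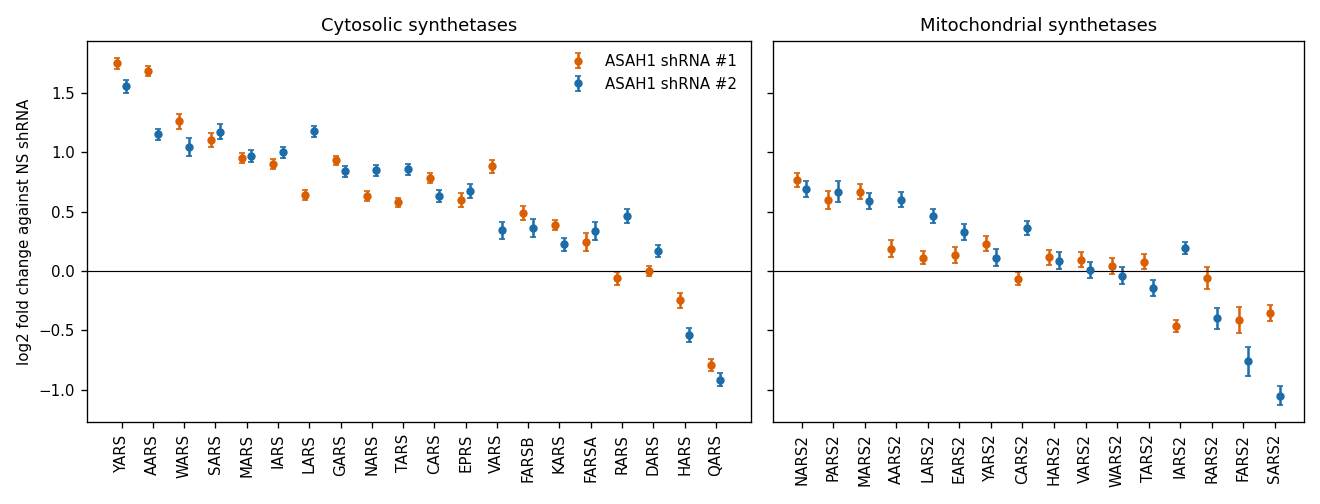
Log2 fold change against NS shRNA of the 20 cytosolic (left) and 16 mitochondrial (right) genes, with standard error from limma (3 libraries per group), for ASAH1 shRNA #1 in orange and ASAH1 shRNA #2 in blue. Genes are ordered by the mean of both values, from YARS to QARS and from NARS2 to SARS2.

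The contrast between compartments was also seen library by library. The median log2 difference of the cytosolic genes from the mean of the NS shRNA libraries was 0.63, 0.67 and 0.64 in the libraries with shRNA #1, and 0.76, 0.77 and 0.76 in those with shRNA #2. For the mitochondrial genes it was 0.06, 0.12 and 0.14 with shRNA #1, and 0.18, 0.13 and 0.19 with shRNA #2. In the NS shRNA libraries both medians stayed between -0.03 and 0.02. The cytosolic median exceeded the mitochondrial one by 0.53 with shRNA #1 (SD 0.030 over 3 hairpin libraries) and by 0.60 with shRNA #2 (SD 0.037). With GARS and KARS left out, because they serve both compartments, the differences were 0.53 and 0.61. These are descriptions of the lists, and genes are not replicates of a condition.

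**Figure D3:**
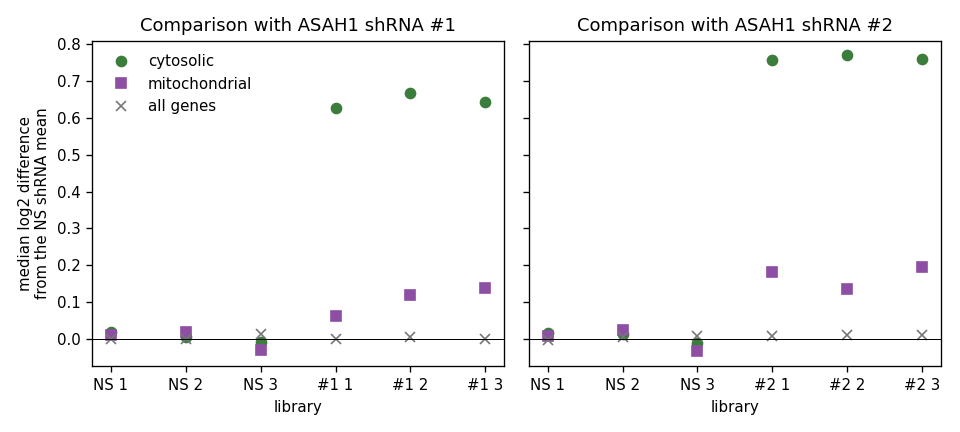
Median log2 difference from the NS shRNA mean over the cytosolic genes (circles), the mitochondrial genes (squares) and all genes tested (crosses) in each library of the comparison with shRNA #1 (left) and shRNA #2 (right). The cytosolic medians of the hairpin libraries lie between 0.63 and 0.77, the mitochondrial ones between 0.06 and 0.19.

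By the mean of both fold changes, the largest rises were those of YARS and AARS, which charge tyrosine and alanine tRNA. Gene positions are those of GENCODE v44 on GRCh38 (hg38). YARS (chr1:32775237-32818031, minus strand) had normalized counts of 3633, 3398 and 3632 with NS shRNA and 12088, 11761 and 11951 with shRNA #1, a log2 fold change of 1.75 (adjusted p = 6.85e-09, standard error 0.0455). In the other table it had 3919.8, 3688 and 3916 with NS shRNA and 11052, 11189 and 11573 with shRNA #2, a log2 fold change of 1.55 (adjusted p = 7.42e-09, standard error 0.052). The hairpin libraries were close to each other and far above every NS shRNA library. AARS (chr16:70251983-70289707, minus strand) went from 4619, 4549.7 and 4542 to 14365, 15112 and 14522 with shRNA #1, a log2 fold change of 1.68 (adjusted p = 5.71e-09, standard error 0.042). With shRNA #2 it went from 4984, 4939 and 4898 to 10982, 11107 and 10811, a log2 fold change of 1.15 (adjusted p = 2.7e-08, standard error 0.0475). The groups did not overlap in either comparison, and the libraries of each group lay close together.

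WARS, SARS and MARS, for tryptophan, serine and methionine, came next by that mean, although with shRNA #2 alone the values of LARS and SARS lay above that of AARS and that of IARS above that of MARS. WARS (chr14:100333790-100376805, minus strand) had 3228, 3196 and 3608 with NS shRNA and 8321, 8227 and 7460.2 with shRNA #1, and 3483, 3469.7 and 3890.3 against 7177, 8229 and 6972 with shRNA #2. Its log2 fold changes were 1.26 (adjusted p = 2.72e-07, standard error 0.0637) and 1.04 (adjusted p = 8.85e-07, standard error 0.0745). Its hairpin libraries were more scattered than those of YARS, but the lowest of them was well above the highest NS shRNA library. SARS (chr1:109213918-109238182, plus strand) had 9742, 9864 and 8799.7 with NS shRNA and 19061, 20312 and 21596 with shRNA #1, and 10512, 10707 and 9488 against 22899.8, 22235 and 24094 with shRNA #2. The log2 fold changes of SARS were 1.10 (adjusted p = 4.71e-07, standard error 0.0614) and 1.17 (adjusted p = 9.9e-08, standard error 0.0602), with no overlap of groups. MARS (chr12:57475445-57517569, plus strand), which also charges the initiator tRNA, had 4459, 4571 and 4494 against 8583, 8687 and 8839 with shRNA #1, and 4812, 4962 and 4845 against 9746, 9279 and 9600.4 with shRNA #2. Its log2 fold changes of 0.95 (adjusted p = 1.07e-07, standard error 0.0412) and 0.97 (adjusted p = 9.74e-08, standard error 0.0495) were nearly alike, and its groups did not overlap.

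IARS and LARS charge the branched-chain amino acids isoleucine and leucine, and LARS is also known as a leucine sensor of mTORC1. IARS (chr9:92210207-92293854, minus strand) had 11336, 11653 and 11812 with NS shRNA and 21734, 22303 and 21032 with shRNA #1, and 12232, 12649 and 12736 against 25587, 25523 and 24053 with shRNA #2. The log2 fold changes were 0.90 (adjusted p = 1.85e-07, standard error 0.0427) and 1.00 (adjusted p = 8.72e-08, standard error 0.0497). Every hairpin library was far above every NS shRNA library. LARS (chr5:146110566-146182696, minus strand) had 7592, 7688 and 7514 against 11402, 12078 and 12039.7 with shRNA #1, a log2 fold change of 0.64 (adjusted p = 1.53e-06, standard error 0.043). With shRNA #2 it had 8192, 8346 and 8102 against 18858, 18540.0 and 18284, a log2 fold change of 1.18 (adjusted p = 2.24e-08, standard error 0.0468). The rise of LARS was therefore clear of the replicate spread with both hairpins, and larger with shRNA #2.

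GARS and KARS, which serve both compartments from a single gene, both rose, GARS by more. GARS (chr7:30580533-30634033, plus strand) had 10278, 10293 and 10219.6 with NS shRNA and 19312, 19394 and 20008 with shRNA #1, and 11091, 11173 and 11019 against 19766, 19553 and 20269.7 with shRNA #2. Its log2 fold changes were 0.93 (adjusted p = 9.43e-08, standard error 0.0395) and 0.84 (adjusted p = 1.62e-07, standard error 0.0463). KARS (chr16:75627474-75648643, minus strand) had 4413, 4162 and 4419 against 5729.7, 5675 and 5590.3 with shRNA #1, and 4762, 4518 and 4764 against 5241, 5786 and 5382 with shRNA #2. The log2 fold changes of KARS were 0.39 (adjusted p = 5.17e-05, standard error 0.0452) and 0.22 (adjusted p = 0.00542, standard error 0.0572), the second of which did not pass with upper quartile rescaling. Groups did not overlap for either gene. Gene-level counts do not separate the cytosolic from the mitochondrial form.

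**Figure D4:**
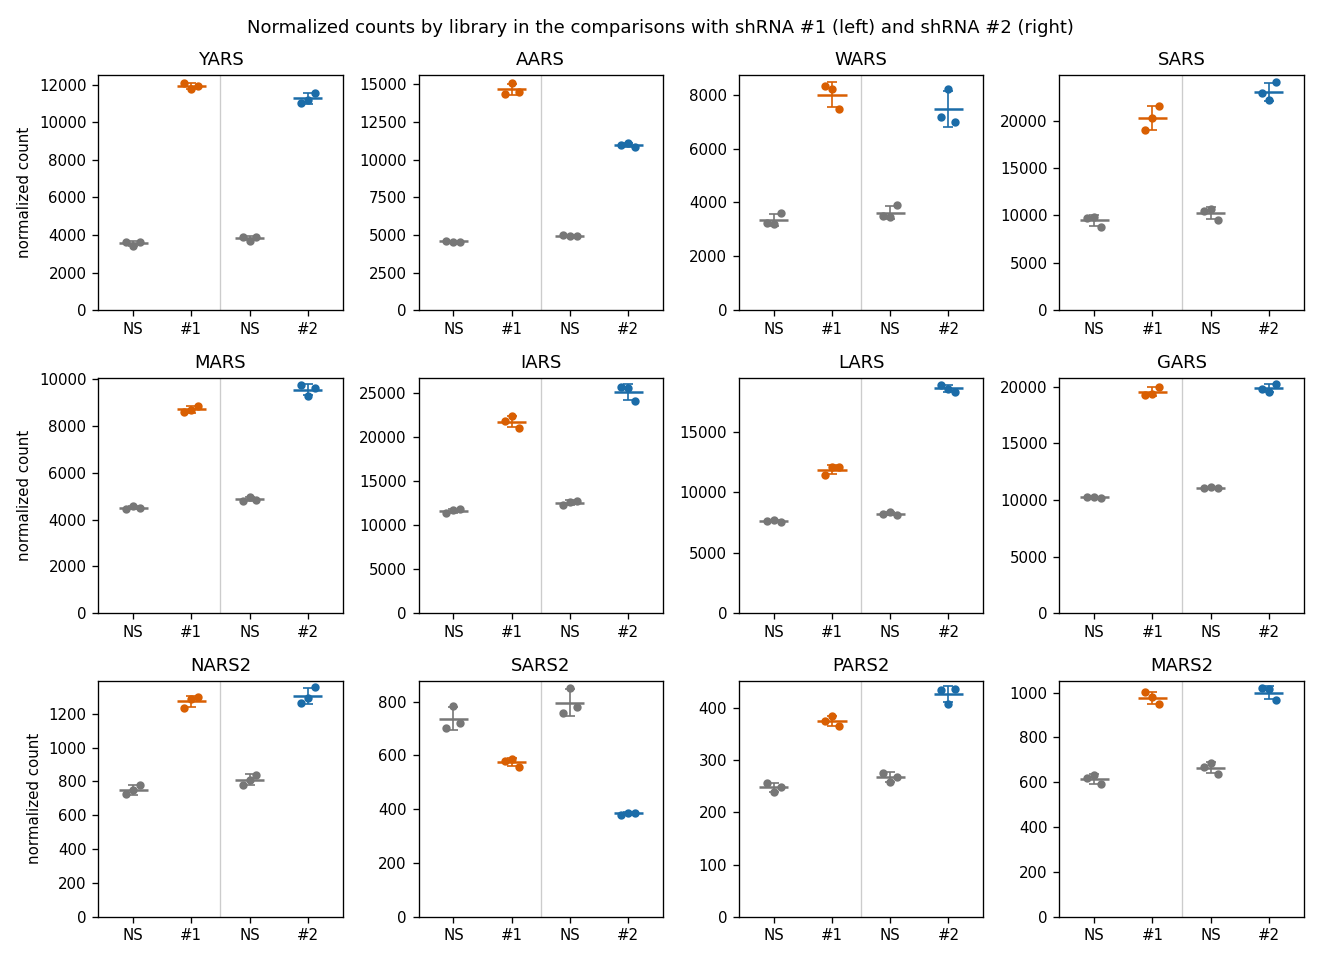
Normalized count in each library (points), with mean and SD of each group of 3, for the 8 cytosolic and 4 mitochondrial genes with the largest mean change. In each panel the NS shRNA and shRNA #1 libraries of one table are on the left and the NS shRNA and shRNA #2 libraries of the other are on the right, and only SARS2 is lower with the hairpins.

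Among the other cytosolic genes that rose, the log2 fold change of NARS (asparagine) was 0.63 with shRNA #1 and 0.85 with shRNA #2, that of TARS (threonine) was 0.58 with shRNA #1 and 0.85 with shRNA #2, and that of CARS (cysteine) was 0.78 with shRNA #1 and 0.63 with shRNA #2. EPRS, the joined glutamate and proline enzyme, had log2 fold changes of 0.60 with shRNA #1 and 0.67 with shRNA #2. VARS, for valine, had log2 fold changes of 0.88 with shRNA #1 and 0.35 with shRNA #2. The subunits of the phenylalanine enzyme rose less: FARSB had log2 fold changes of 0.49 with shRNA #1 and 0.36 with shRNA #2, and FARSA had log2 fold changes of 0.24 with shRNA #1 and 0.34 with shRNA #2. The call of FARSA with shRNA #1 (adjusted p = 0.0175) was lost in 3 alternative fits, among them the fit without replicate 2 of shRNA #1 (log2 fold change 0.24, adjusted p = 0.052).

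DARS and RARS, for aspartate and arginine, passed the test with shRNA #2 and not with shRNA #1. The log2 fold change of DARS was 0.0011 (adjusted p = 0.983, standard error 0.0403) with shRNA #1 and 0.17 (adjusted p = 0.00891, standard error 0.0472) with shRNA #2. The latter call was lost with upper quartile rescaling and with a block for the replicate number (adjusted p = 0.076 with the block). The log2 fold change of RARS was -0.06 (adjusted p = 0.345, standard error 0.0534) with shRNA #1 and 0.46 (adjusted p = 6.06e-05, standard error 0.0603) with shRNA #2. Both genes were higher with shRNA #2 in the direct test of the hairpins, by a log2 ratio of 0.16 and 0.52 (edgeR adjusted p = 0.00318 and 1.44e-05), and the call of DARS was lost there too with upper quartile factors (log2 ratio 0.078, adjusted p = 0.0976). Both enzymes belong to the multi-tRNA synthetase complex.

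QARS and HARS were the exceptions that fell. QARS (chr3:49095932-49105130, minus strand), the glutamine enzyme, was chosen for library values after its fold changes had been seen. It had 6827, 6809 and 6467 with NS shRNA and 3720.0, 3785 and 4106 with shRNA #1, a log2 fold change of -0.79 (adjusted p = 1.37e-06, standard error 0.0524). With shRNA #2 it had 7366, 7391 and 6972 against 3817, 3703 and 4019.5, a log2 fold change of -0.91 (adjusted p = 2.91e-07, standard error 0.0553). Every hairpin library was below every NS shRNA library. HARS (chr5:140673035-140691537, minus strand), the histidine enzyme, had log2 fold changes of -0.25 (adjusted p = 0.00579, standard error 0.0619) and -0.54 (adjusted p = 2.17e-05, standard error 0.0612). HARS lies head to head with its mitochondrial counterpart HARS2, on opposite strands, with RefSeq starts 85 bases apart and promoter windows that share 184 bases. The log2 fold change of HARS2 was 0.12 (adjusted p = 0.129, standard error 0.0623) and 0.09 (adjusted p = 0.282, standard error 0.0697), so HARS fell while HARS2 did not pass the test in either comparison.

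Inside the multi-tRNA synthetase complex (DARS, EPRS, IARS, KARS, LARS, MARS, QARS and RARS), 5 of 8 genes rose and 1 fell with shRNA #1, with a median of 0.49. With shRNA #2, 7 rose and 1 fell, with a median of 0.57. Of the 12 cytosolic genes outside the complex, 11 rose and 1 fell in each comparison, with medians of 0.83 and 0.84. Of the 9 cytosolic class I genes, 7 rose and 1 fell with shRNA #1 and 8 rose and 1 fell with shRNA #2, with medians of 0.88 and 0.97. Of the 10 cytosolic class II genes, 8 rose and 1 fell with shRNA #1 and 9 rose and 1 fell with shRNA #2, with medians of 0.54 and 0.60. The mitochondrial medians were lower in each class, 0.10 and 0.19 in the 9 class I genes and 0.12 and 0.09 in the 7 class II genes. Over all genes tested, 32.8% were called higher and 33.3% lower with shRNA #1, and 33.5% and 33.4% with shRNA #2.

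Of the mitochondrial genes, NARS2, PARS2 and MARS2 rose by amounts near the cytosolic median. NARS2 (chr11:78435620-78575194, minus strand), for asparagine, had 722, 747 and 779 with NS shRNA and 1236, 1287 and 1297 with shRNA #1, and 779, 811 and 840.2 against 1265, 1291 and 1361 with shRNA #2. Its log2 fold changes were 0.76 (adjusted p = 3.35e-06, standard error 0.0586) and 0.69 (adjusted p = 7.44e-06, standard error 0.067). The groups were well separated. PARS2 (chr1:54756898-54764523, minus strand), for proline, was the scarcest member, with 256, 238 and 249 against 376, 386 and 367 with shRNA #1, and 277, 259 and 269 against 435, 409 and 437 with shRNA #2. The log2 fold changes of PARS2 were 0.60 (adjusted p = 0.000102, standard error 0.0776) and 0.67 (adjusted p = 5.25e-05, standard error 0.0855), without overlap of groups. MARS2 (chr2:197705369-197708395, plus strand), a single-exon gene for methionine, had 619, 633 and 591 against 1002, 981 and 948 with shRNA #1, and 667, 687 and 637 against 1019, 1015 and 967 with shRNA #2. Those of MARS2 were 0.67 (adjusted p = 1.01e-05, standard error 0.061) and 0.59 (adjusted p = 2.68e-05, standard error 0.0689), again without overlap.

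SARS2, the mitochondrial serine enzyme, moved opposite to its cytosolic counterpart SARS. SARS2 (chr19:38915266-38930763, minus strand) had 702, 785 and 722 with NS shRNA and 580.3, 586 and 558 with shRNA #1, a log2 fold change of -0.36 (adjusted p = 0.00125, standard error 0.068). With shRNA #2 it had 758, 852 and 778 against 379.5, 387 and 386, a log2 fold change of -1.05 (adjusted p = 1.14e-06, standard error 0.0779). All hairpin libraries were below the NS shRNA libraries, and the libraries with shRNA #2 were lowest. FARS2, for phenylalanine, also fell, with log2 fold changes of -0.41 (adjusted p = 0.00762, standard error 0.11) and -0.76 (adjusted p = 0.00024, standard error 0.12). RARS2, for arginine, had a log2 fold change of -0.06 (adjusted p = 0.577, standard error 0.0917) with shRNA #1, which did not pass, and fell with shRNA #2, with a log2 fold change of -0.40 (adjusted p = 0.00204, standard error 0.0866).

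IARS2 was the only member called in opposite directions. IARS2 (chr1:220094132-220148041, plus strand) had 9899, 10376 and 9952 with NS shRNA and 6886, 7441 and 7575 with shRNA #1, a log2 fold change of -0.47 (adjusted p = 2.9e-05, standard error 0.0498). With shRNA #2 it had 10681, 11263 and 10730.1 against 12674, 11988 and 12689, a log2 fold change of 0.19 (adjusted p = 0.00647, standard error 0.0509). Its libraries were thus below NS shRNA with the first hairpin and above it with the second. The rise with shRNA #2 was lost with upper quartile rescaling (log2 fold change 0.10, adjusted p = 0.094) and with a block for the replicate number (adjusted p = 0.0532). The fall with shRNA #1 was kept in every alternative fit.

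Of the remaining mitochondrial genes, AARS2, for alanine, rose in each comparison, with log2 fold changes of 0.19 with shRNA #1 and 0.60 with shRNA #2, and its call with shRNA #1 (adjusted p = 0.0436) was lost without any 1 of 5 libraries, all 3 of NS shRNA and replicates 2 and 3 of shRNA #1, with log2 fold changes from 0.15 to 0.22. YARS2, for tyrosine, had a log2 fold change of 0.23 (adjusted p = 0.008, standard error 0.0612) with shRNA #1 and 0.11 (adjusted p = 0.178, standard error 0.0702) with shRNA #2. LARS2, CARS2 and EARS2, for leucine, cysteine and glutamate, rose with shRNA #2, with log2 fold changes of 0.46, 0.36 and 0.33. With shRNA #1 they had log2 fold changes of 0.11, -0.06 and 0.13 and did not pass, although EARS2 passed without replicate 1 of shRNA #1 (log2 fold change 0.19, adjusted p = 0.0357). TARS2, VARS2 and WARS2, for threonine, valine and tryptophan, did not pass in either comparison, with log2 fold changes of 0.08, 0.10 and 0.04 with shRNA #1 and -0.14, 0.01 and -0.04 with shRNA #2.

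Paired by amino acid, the cytosolic fold change exceeded the mitochondrial one in 13 of 16 pairs with shRNA #1, with a median difference of 0.59, and in 15 of 16 with shRNA #2, with a median difference of 0.63. EPRS stands in 2 of these pairs, with EARS2 and with PARS2, and FARS2 was paired with FARSA and not with FARSB. Wide gaps in both comparisons were those of the serine pair, 1.46 and 2.22, and the tyrosine pair, 1.52 and 1.44. The histidine pair went the other way in both, by -0.36 and -0.63. In the proline pair the difference was -0.0017 and 0.0048, and in the methionine pair, where both genes rose, it was 0.28 and 0.38. The asparagine pair differed by -0.13 and 0.16. The arginine pair was level with shRNA #1, with a difference of 0.001, and differed by 0.86 with shRNA #2.

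Set beside the promoter stretches, all 7 cytosolic genes that held TGATGNAA in their window rose in each comparison, with medians of 0.90 and 0.85 and a lowest value of 0.58 with shRNA #1 and 0.63 with shRNA #2. Of the 9 cytosolic genes with a window and no match, 6 rose and 2 fell with shRNA #1 and 7 rose and 2 fell with shRNA #2, with medians of 0.39 and 0.36. This group ranged up to 1.26 in WARS and 1.17 in SARS, so genes without the letters also rose. Beside these counts, 32.8% of all genes tested were called higher and 33.3% lower with shRNA #1, and 33.5% and 33.4% with shRNA #2. The 4 genes without a window, DARS, LARS, VARS and YARS, had medians of 0.76 and 0.76. YARS2, the mitochondrial gene with a match, had log2 fold changes of 0.23 with shRNA #1 and 0.11 with shRNA #2. A match to these letters is a description of the window and was not tested as a binding site.

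The hairpins were compared directly on recovered reads of all 9 libraries, put on a common scale by TMM, with edgeR's quasi-likelihood test. Of the cytosolic genes, 5 were higher and 8 lower with shRNA #2 than with shRNA #1, and 7 did not pass. Of the mitochondrial genes, 5 were higher, 4 lower and 7 did not pass. Over all 14714 genes tested 31.1% were higher and 32.1% lower (63.3% in either direction), so the members differed between hairpins about as often as other genes. The largest cytosolic differences were those of VARS, -0.54 (standard error 0.0695, adjusted p = 3.76e-05), and AARS, -0.54 (standard error 0.0389, adjusted p = 3.93e-07), lower with shRNA #2, and those of LARS, 0.53 (standard error 0.0397, adjusted p = 5.16e-07), and RARS, 0.52 (standard error 0.0588, adjusted p = 1.44e-05), higher with shRNA #2, all as log2 ratios. Among the mitochondrial genes SARS2 was lower with shRNA #2, -0.70 (standard error 0.0648, adjusted p = 2.68e-06), and IARS2 higher, 0.65 (standard error 0.0486, adjusted p = 4.99e-07). The depletion of ASAH1 itself was deeper with shRNA #2, -0.88 (standard error 0.051, adjusted p = 6.82e-08). MARS, with a log2 ratio of 0.01 (standard error 0.0404, adjusted p = 0.787), and SARS, with 0.06 (standard error 0.0598, adjusted p = 0.369), were among the members that did not pass.

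Partners of the synthetases moved less evenly. Of 17 genes listed, 16 were tested, since AARSD1 held at most 3 reads in any library. With shRNA #1, 8 rose, 2 fell and 6 did not pass, with a median of 0.17, beside 32.8% of all genes called higher and 33.3% lower. With shRNA #2, 10 rose, 3 fell and 3 did not pass, with a median of 0.43, beside 33.5% and 33.4%. Of the scaffold proteins, AIMP2 had log2 fold changes of 0.91 with shRNA #1 and 0.91 with shRNA #2 and AIMP1 had log2 fold changes of 0.48 with shRNA #1 and 0.68 with shRNA #2. EEF1E1 had a log2 fold change of 0.11 with shRNA #1 (adjusted p = 0.146) and 0.58 with shRNA #2 (adjusted p = 5.38e-05). XPOT, which exports tRNA from the nucleus, had log2 fold changes of 0.61 with shRNA #1 and 0.83 with shRNA #2, and TRNT1, which adds the CCA end, had log2 fold changes of 0.51 with shRNA #1 and 0.82 with shRNA #2, and both rose in each comparison.

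On the mitochondrial route, the subunits of the amidotransferase that makes glutamine tRNA diverged. GATC rose, with log2 fold changes of 0.42 with shRNA #1 and 0.46 with shRNA #2, and QRSL1 rose by less, with log2 fold changes of 0.22 with shRNA #1 and 0.20 with shRNA #2. The call of QRSL1 with shRNA #2 (adjusted p = 0.0326) was lost with upper quartile rescaling and without replicates 2 or 3 of NS shRNA or 1 or 3 of shRNA #2 (log2 fold changes from 0.11 to 0.19). Its call with shRNA #1 (adjusted p = 0.0132) was lost without replicate 2 of shRNA #1 (log2 fold change 0.21). A block for the replicate number also ended both calls of QRSL1 (adjusted p = 0.058 with shRNA #1 and 0.102 with shRNA #2). GATB fell, with log2 fold changes of -0.16 with shRNA #1 and -0.43 with shRNA #2, and its call with shRNA #1 (adjusted p = 0.0416) was lost in 9 alternative fits, among them those without replicates 1 or 3 of NS shRNA or any of shRNA #1 (log2 fold changes from -0.17 to -0.13). MTFMT, which formylates the mitochondrial initiator tRNA, fell, with log2 fold changes of -0.39 with shRNA #1 and -0.83 with shRNA #2. In selenocysteine tRNA synthesis, SEPSECS rose with shRNA #1, with a log2 fold change of 1.16 (adjusted p = 3.35e-06, standard error 0.0887), and had a log2 fold change of 0.07 (adjusted p = 0.533, standard error 0.0942) with shRNA #2. PSTK had a log2 fold change of 0.0029 (adjusted p = 0.985, standard error 0.12) with shRNA #1 and fell with shRNA #2, with a log2 fold change of -1.50 (adjusted p = 8.09e-06, standard error 0.15). These are the enzymes of successive steps, and each was called with a different hairpin. The difference between hairpins was -1.10 (standard error 0.0793, adjusted p = 3.98e-07) for SEPSECS and -1.53 (standard error 0.141, adjusted p = 2.62e-06) for PSTK.

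Of the factors that deliver charged tRNA to the ribosome, EEF1A1 had log2 fold changes of 0.08 with shRNA #1 and 0.40 with shRNA #2 and passed with shRNA #2 (adjusted p = 0.00181) and not with shRNA #1 (adjusted p = 0.273). Its paralogue EEF1A2 rose in each, with log2 fold changes of 0.43 with shRNA #1 and 1.18 with shRNA #2. The mitochondrial factor TUFM, with log2 fold changes of 0.08 with shRNA #1 and 0.18 with shRNA #2, did not pass in either, but passed with shRNA #2 without replicate 1 of NS shRNA or replicate 2 of shRNA #2 (log2 fold change 0.24 in each). DTD1, which removes D-amino acids from tRNA, did not pass in either, with log2 fold changes of 0.12 with shRNA #1 and 0.19 with shRNA #2, and passed with shRNA #2 without replicate 2 of shRNA #2 (log2 fold change 0.26, adjusted p = 0.0485). TARSL2, a cytosolic threonine enzyme resembling TARS, had a log2 fold change of -0.08 with shRNA #1 (adjusted p = 0.505) and rose with shRNA #2, with a log2 fold change of 0.48 (adjusted p = 0.00249).

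In the amino acid response list, 5 of 6 genes rose with each hairpin (32.8% and 33.5% of all genes), with medians of 1.25 and 0.99. This list, like that of the partners, was chosen with earlier results of these data known. ASNS, which makes asparagine, rose by similar amounts with both, with log2 fold changes of 2.42 (adjusted p = 1.66e-09, standard error 0.0443) and 2.52 (adjusted p = 5.03e-10, standard error 0.0522). ATF4 mRNA had log2 fold changes of 0.60 with shRNA #1 and 0.82 with shRNA #2, and its targets TRIB3 and DDIT3 (CHOP) rose too. TRIB3 had log2 fold changes of 1.89 with shRNA #1 and 1.22 with shRNA #2, and DDIT3 had log2 fold changes of 2.47 with shRNA #1 and 1.16 with shRNA #2. GCN1 had log2 fold changes of 0.20 with shRNA #1 and 0.35 with shRNA #2. The sensor kinase gene EIF2AK4 did not pass, with log2 fold changes of -0.07 (adjusted p = 0.28, standard error 0.0507) and 0.02 (adjusted p = 0.752, standard error 0.0585). DDIT3 overlaps MARS by 355 exon bases on the opposite strand, and the counting used strand.

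**Figure D5:**
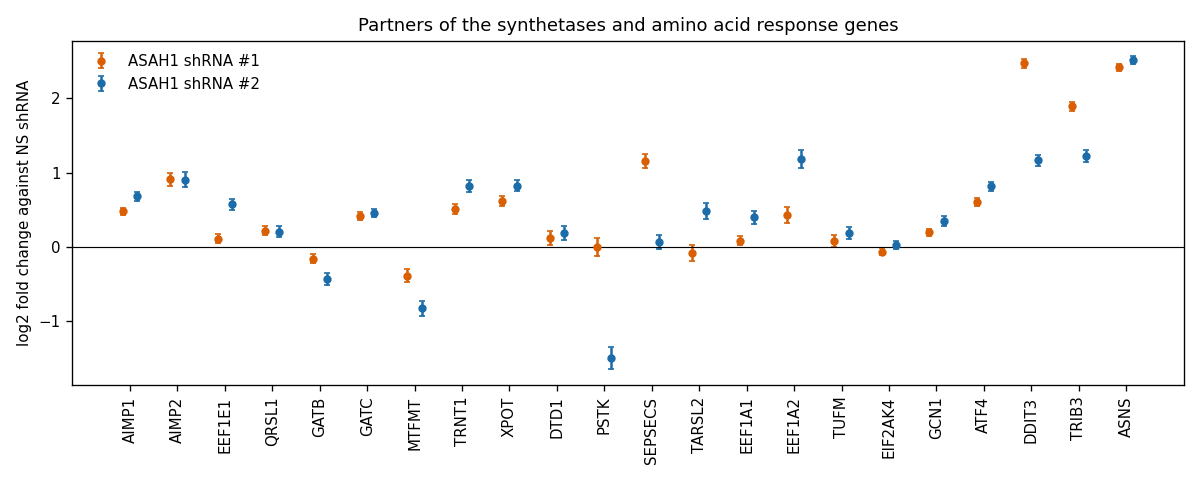
Log2 fold change against NS shRNA, with standard error from limma (3 libraries per group), of the 16 tested partner genes (AIMP1 to TUFM) and the 6 amino acid response genes (EIF2AK4 to ASNS), for ASAH1 shRNA #1 in orange and ASAH1 shRNA #2 in blue. ASNS lies above 2 with both hairpins, while PSTK and SEPSECS each depart from 0 with a single hairpin.

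Exon overlaps were sought by the GENCODE v44 annotation, and only with genes whose symbol was also found in the deposited data. Neighbours under a changed symbol could be missed. At least 11 members share exon bases with a gene on the opposite strand, such as YARS with S100PBP (396 bases) and HARS with WDR55 (1090 bases). The counting used strand, and how fully it kept these reads apart was not tested. On the same strand, at least 6 members share exon bases with another gene. Those found were HARS with DND1 (176 bases), EARS2 with GGA2 (203 bases), HARS2 with ZMAT2 (152 bases), and MARS, QARS and TARS2 with microRNA genes (61 to 66 bases). The reads were counted on UCSC genes instead, and the part of these stretches in the counts of these 6 members was not tested.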

How the data were processed

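Strand-specific RNA libraries of 9 MDA-MB-231 samples were sequenced by the authors, who used Trimmomatic 0.36 for trimming, STAR 2.7.1a for alignment to hg38 and htseq-count (UCSC genes, reverse strand) for counting, and ran DESeq2 1.28 for each ASAH1 shRNA with NS shRNA. Another paragraph of the methods names other tools (Bowtie2, RSEM, TMM and edgeR). The series notes describe ribosomal RNA depletion and the protocol oligo-dT selection. The deposited values are normalized signals, read counts divided by 1 size factor per library, for 26485 genes in each of 2 tables, and the authors also deposited the mean of these signals. The authors' own comparisons in the same tables (log2 fold changes, Wald score and p-values) were not used. No column of single-library values was left unmatched (0 of them). Spreadsheet dates stood in place of 28 symbols on one side and were replaced from the other. Multiplying the values by the size factor gave whole reads for 100% of values, within 0.01 read, with 0 differences between tables for NS shRNA.

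Each hairpin was compared with NS shRNA within its own table by limma 3.58.1 (R 4.3.3) with an intensity trend on log2(value + 1), for genes whose mean reached 10, two-sided, with Benjamini-Hochberg adjustment at 0.05. Fold changes on this scale understate changes of low genes. For hairpin against hairpin, edgeR 4.0.16 (quasi-likelihood, TMM, filterByExpr) was run on the recovered reads. The standard error of that log2 ratio is its size divided by the root of the F statistic. Alternatives were pseudocounts of 0.1 and 5, no filter, a mean of at least 50, no trend, upper quartile scaling, edgeR and DESeq2 1.42.0 on recovered reads, limma on all 9 libraries at once, a block for the replicate number and the omission of each library in turn. The fits were tested on simulated data.

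The members and lists were chosen with earlier results of these data known. Library values are given for the 8 cytosolic and 4 mitochondrial members with the largest mean change, members called in opposite directions, GARS and KARS. Promoter windows are from RefSeq (GRCh38.p14), positions, lengths and overlaps from GENCODE v44, and older symbols were matched through RefSeq synonyms. Tables and plots were made with pandas 2.3.3 and matplotlib 3.10.9 in Python 3.11.15. Replicates within a group differed by a chi-square per gene of 5.26 to 23.2, so no library repeats another, and p-values measure the spread between these libraries. Reads on genes per library ran from 23806003 to 49659106, and no member held fewer than 243 reads in any library. An item of the marker list is not reported here.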

Additional observations from a re-analysis of the deposited data

Results flagged for a closer look

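In the direct test of the hairpins (edgeR, adjusted p below 0.05 over 14714 genes), 22 of the 36 members differed, where 63.3% of all genes did. Values are log2 ratios of shRNA #2 over shRNA #1, from 3 libraries each. Groups of 3 were not tested for single outlying libraries.

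Lower with shRNA #2 among the cytosolic genes were VARS by -0.54, AARS by -0.54, HARS by -0.30, WARS by -0.22, YARS by -0.20, KARS by -0.17, CARS by -0.15 and GARS by -0.098. Of these, HARS had fallen against NS shRNA with both hairpins, while the other 7 had risen with both. Higher with shRNA #2 were LARS by 0.53, RARS by 0.52, TARS by 0.27, NARS by 0.21 and DARS by 0.16.

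Among the mitochondrial genes IARS2 was higher with shRNA #2 by 0.65, CARS2 by 0.42, AARS2 by 0.40, LARS2 by 0.34 and EARS2 by 0.18. SARS2 was lower by -0.70, FARS2 by -0.35, RARS2 by -0.34 and TARS2 by -0.23. The ratios of LARS and LARS2, and of AARS and AARS2, had the same sign for leucine and opposite signs for alanine.

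ASAH1 depletion also differed between the hairpins, with a log2 ratio of -0.88. With 2 hairpins, the depth of depletion and other properties of a hairpin or its culture cannot be told apart.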

How the results depend on the processing

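Against NS shRNA, 18 of 20 cytosolic and 12 of 16 mitochondrial genes with shRNA #1, and 18 of 20 and 11 of 16 with shRNA #2, kept direction and side of the threshold in every alternative. Between hairpins 10 of 20 and 8 of 16 did. The cytosolic minus mitochondrial median ran from 0.52 to 0.56 with shRNA #1 and from 0.58 to 0.63 with shRNA #2.

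Upper quartile scaling moved the median of all genes from 0.013 to -0.077 with shRNA #2 and from -0.0052 to -0.087 between hairpins. With it, the cytosolic median with shRNA #2 was 0.67 and the mitochondrial one 0.063, and 9 mitochondrial genes were lower between hairpins instead of 4. It ended the calls of DARS, KARS, IARS2 and QRSL1 with shRNA #2 and added TARS2. Between hairpins it ended those of DARS, EARS2, XPOT, GCN1 and ATF4 and added FARSB, QARS, MARS2, NARS2, VARS2, WARS2 and YARS2. Signs reversed, none of a called value, for DARS (-0.0029) and PSTK (-0.0010) with shRNA #1, for HARS2 (-0.00092), VARS2 (-0.081), SEPSECS (-0.020) and EIF2AK4 (-0.067) with shRNA #2, and between hairpins for EPRS (-0.014), MARS (-0.069), SARS (-0.018), PARS2 (-0.020), GATC (-0.050), DTD1 (-0.023) and EIF2AK4 (-0.00092).

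With each library left out in turn, the cytosolic median with shRNA #2 ran from 0.74 to 0.77, and 5 to 8 cytosolic genes were lower between hairpins, 5 of them without replicate 1 of shRNA #2. Values that crossed 0, none of them called, ran from -0.0083 to 0.014 for DARS, from -0.075 to 0.095 for PSTK, from -0.13 to 0.0049 for RARS2 and from -0.0053 to 0.079 for WARS2 with shRNA #1. With shRNA #2 they ran from -0.011 to 0.055 for EIF2AK4, from -0.029 to 0.059 for VARS2 and from -0.069 to 0.00068 for WARS2. Between hairpins they ran from -0.092 to 0.067 for AIMP2, from -0.042 to 0.146 for DTD1 and from -0.038 to 0.013 for QRSL1. Between hairpins the call of KARS was lost without replicate 1 of shRNA #2 (-0.14), and that of EARS2 without replicate 1 of either hairpin (0.13 in each). WARS lost its call without replicates 1 or 2 of shRNA #1 or 1 or 3 of shRNA #2 (-0.20 to -0.17), and FARS2 without replicates 2 or 3 of shRNA #1 or 1 of shRNA #2 (-0.33 to -0.27). GARS lost it without replicate 2 of NS shRNA, any of shRNA #1, or 1 or 2 of shRNA #2 (-0.11 to -0.079). FARSB (-0.21) gained a call without replicate 2 of shRNA #2, IARS (0.12) without replicate 3 of it, and QARS (-0.16) without replicate 1 of shRNA #1 or 3 of shRNA #2.

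Same-numbered libraries deviated with correlations from -0.32 to -0.10 against NS shRNA, where differently numbered ones ran from -0.11 to 0.27. Between hairpins the same-numbered ones ran from 0.05 to 0.20 and the others from -0.13 to 0.05. Whether a replicate number marks a shared batch was not tested. With the replicate number as a block, 15 cytosolic genes were higher with shRNA #1 and 17 with shRNA #2, 4 and 7 mitochondrial genes were higher, and the medians were those reported. All genes called then numbered 4120 higher and 4117 lower with shRNA #1, 4246 and 4280 with shRNA #2, and 4269 and 4457 between hairpins.

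The lowest read count of a member in any library was 243, and the part of depth in these calls was not tested. The cause of the changes above was not tested either.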
